A study of Mus musculus with 24 samples.

Results

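The mouse genes homologous to the human 22q11.2 deletion region were followed across anterior heart field (AHF) tissue of embryos with conditional inactivation of *Tbx1*, of *β-catenin*, or of *Tbx1* together with 1 allele of *β-catenin*. The 29 genes were taken by name as the homologues of the deleted region, with *Tbx1* itself set apart because it was the gene inactivated. Of these 29, 28 had a probe set of their own among the 19938 genes measured. The remaining member, *Gp1bb*, the platelet glycoprotein Ib beta chain, shared its only probe set with its neighbour *Septin5* and was not counted. In the mouse the members lie together on chromosome 16, from *Pi4ka* at one end to *Hira* at the other, and of the members *Gnb1l* lies next to *Tbx1* on one side and *Gp1bb* on the other.

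Every sample was AHF tissue, the pharyngeal arch region that feeds cells into the heart, cut from embryos at E9.5 with 19 to 21 somite pairs and hybridised as pools of embryos to Affymetrix Mouse Gene ST arrays. *Tbx1 LOF* embryos carried the *Mef2c-AHF-Cre*/+ transgene with *Tbx1* f/- or *Tbx1* f/f, *β-cat LOF* embryos carried it with *β-catenin* f/f, and rescue embryos were conditional *Tbx1* mutants with 1 added *β-catenin* flox allele. By the methods for the arrays, the controls were *Tbx1* f/+, *β-catenin* f/+ and *Tbx1* f/+;*β-catenin* f/+ in turn, all without Cre. Mutants and controls so defined also differ in the Cre transgene, and its part in any difference was not tested. The labels also name wild type and *Mef2c-AHF-Cre*/+;*Tbx1* f/+ littermates, which the methods give as controls for the *Tbx1 LOF* and rescue crosses. There were 4 arrays in each of the 6 groups, 24 in all. The sources used here do not say which pools held *Tbx1* f/- and which f/f.

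In people, a deletion of this region on one copy of the chromosome causes 22q11.2 deletion syndrome, also known as DiGeorge or velo-cardio-facial syndrome, with malformations of the cardiac outflow tract, thymus, parathyroids and palate. *TBX1* encodes a T-box transcription factor and is the leading candidate for the heart defects, but its neighbours are lost with it and several act in the same tissues. Among them are *Crkl*, an adaptor protein that carries growth factor signals, *Dgcr8*, the partner of Drosha in the microprocessor that cuts primary microRNAs, and *Hira*, a chaperone that deposits the histone variant H3.3. The comparisons below ask whether loss of *Tbx1* or of *β-catenin* was accompanied by a change in the RNA of these neighbours.

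The starts of several members lie so close to the start of the next gene that both promoter windows overlap. RefSeq (GRCm38.p6) gave a window of 300 bases, 250 before and 50 after the start, for 28 of the 29 members, 35 windows in all, and *Slc7a4* had none in the table. Overlapping windows on opposite strands were found for 4 pairs of neighbours, *Pi4ka* with *Snap29* (234 shared bases), *Ranbp1* with *Trmt2a* (288), *Tango2* with *Arvcf* (183) and *Mrpl40* with *Hira* (212). The windows of *Ranbp1* (chr16:18248645-18248944, minus strand) and *Tango2* (chr16:18348049-18348348, minus strand) are shown as examples of the 4 pairs. The capitals mark the bases that also lie in the window of the partner gene, *Trmt2a* and *Arvcf* respectively.
Ranbp1 shared with Trmt2a: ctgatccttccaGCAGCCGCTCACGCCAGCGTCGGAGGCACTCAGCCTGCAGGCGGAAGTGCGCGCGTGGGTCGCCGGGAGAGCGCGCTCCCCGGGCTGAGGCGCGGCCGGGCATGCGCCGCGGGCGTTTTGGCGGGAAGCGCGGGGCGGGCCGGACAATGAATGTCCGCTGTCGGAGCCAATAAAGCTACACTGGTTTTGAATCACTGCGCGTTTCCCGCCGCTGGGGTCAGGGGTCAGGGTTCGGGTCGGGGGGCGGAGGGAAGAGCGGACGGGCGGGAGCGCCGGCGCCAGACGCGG
Tango2 shared with Arvcf: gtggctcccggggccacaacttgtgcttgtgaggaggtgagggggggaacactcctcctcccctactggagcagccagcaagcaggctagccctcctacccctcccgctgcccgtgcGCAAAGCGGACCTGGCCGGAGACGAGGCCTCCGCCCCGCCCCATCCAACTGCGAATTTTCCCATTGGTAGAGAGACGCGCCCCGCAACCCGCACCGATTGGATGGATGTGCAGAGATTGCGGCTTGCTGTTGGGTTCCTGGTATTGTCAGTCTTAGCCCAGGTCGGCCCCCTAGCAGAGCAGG

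The windows were searched on both strands for the T-box core GGTGTGA and for the TCF/LEF core CTTTGAT, the sequence bound by the partners of β-catenin. The T-box core stood in 2 of the 35 windows, those of *Gnb1l* and of 1 *Arvcf* start, against 3.98% of all 32851 windows in the table. The TCF/LEF core stood in 1 window, that of *Serpind1*, on the minus strand, against 3.73% of all windows. These windows (plus strand, *Gnb1l* chr16:18498463-18498762, *Arvcf* chr16:18392313-18392612, *Serpind1* chr16:17331121-17331420) are shown because *Gnb1l* is the immediate neighbour of *Tbx1* and because the inactivated genes act through these motifs. Here the capitals mark the motif. A match describes the letters only.
Gnb1l: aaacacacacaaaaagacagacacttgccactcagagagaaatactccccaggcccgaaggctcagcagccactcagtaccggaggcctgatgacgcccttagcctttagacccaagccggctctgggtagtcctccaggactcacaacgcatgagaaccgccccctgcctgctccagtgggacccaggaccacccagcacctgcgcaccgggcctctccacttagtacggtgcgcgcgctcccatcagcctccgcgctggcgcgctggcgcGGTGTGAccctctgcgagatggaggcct
Arvcf: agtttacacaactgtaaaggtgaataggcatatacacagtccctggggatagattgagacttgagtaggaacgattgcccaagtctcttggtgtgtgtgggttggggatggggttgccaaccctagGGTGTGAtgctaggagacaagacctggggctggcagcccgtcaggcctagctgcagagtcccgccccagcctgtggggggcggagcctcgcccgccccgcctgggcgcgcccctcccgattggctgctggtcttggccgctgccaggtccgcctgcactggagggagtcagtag
Serpind1: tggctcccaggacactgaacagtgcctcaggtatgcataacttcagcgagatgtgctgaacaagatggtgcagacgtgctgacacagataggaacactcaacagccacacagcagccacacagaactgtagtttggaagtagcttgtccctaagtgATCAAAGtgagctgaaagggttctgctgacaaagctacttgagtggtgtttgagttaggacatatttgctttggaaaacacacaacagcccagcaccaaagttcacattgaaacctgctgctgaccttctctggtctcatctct
The member windows were rich in CpG, with a median of 23 CpG dinucleotides and 63.3% GC, against 7 and 52.7% over all windows in the table.

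Values below are log2 expression after RMA, differences are mutant minus its own control, and p-values are from limma over all genes. The highest array median was 8.14. Since tissue was measured in bulk, fewer cells of a type and less RNA per cell cannot be told apart, and the Cre domain is only part of the dissected tissue. Of 11 AHF and pharyngeal mesoderm markers 10 were measured, and their mean level lay between 10.39 and 10.72 on every array. That mean hides opposite differences in *Tbx1 LOF*, where *Tbx1*, *Fgf10* (-0.39), *Six2* (-0.38) and *Eya1* (-0.24) were lower and *Hand2* (0.25) was higher at an unadjusted p under 0.05, *Tbx1* alone passing the adjustment. Heart muscle markers differed between the groups, although the tissue was dissected as pharyngeal arches. At an unadjusted p under 0.05, 11 of 12 were higher in *Tbx1 LOF* (median log2 difference 0.92) and 11 of 12 lower in *β-cat LOF* (median -1.06). None passed an adjusted p under 0.05. Their mean level was 10.71 to 11.12 in *Tbx1 LOF* and 9.66 to 10.31 in its controls. It was 9.87 to 10.48 in *β-cat LOF* and 10.41 to 12.64 in its controls, so that these 2 groups overlapped. Neural tube markers differed the other way, 3 of 9 being lower in *Tbx1 LOF* (median -0.19) and 4 of 9 higher in *β-cat LOF* (median 0.26) at an unadjusted p under 0.05, again with none passing the adjustment. In the *β-cat LOF* experiment 0 of 12 heart muscle markers were higher in arrays numbered 3 and 4 than in 1 and 2 (median -0.81 over both genotypes). It was 4 of 12 in the *Tbx1 LOF* experiment (median -0.05) and 0 of 12 in rescue (median -0.32). Of the neural tube markers 7 of 9 were higher in arrays 3 and 4 of the *β-cat LOF* experiment (median 0.06). The part of either list in the results below was not tested.

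*Tbx1* itself gave the scale for its neighbours. *Tbx1* read 11.91, 11.77, 11.98 and 11.99 in the controls and 10.98, 11.28, 11.43 and 11.40 in *Tbx1 LOF*. No mutant array reached the lowest control. The mutants stood at 0.640 of the controls, a log2 difference of -0.64 (SE 0.0943) with an adjusted p of 0.00626. With the array number as a block the adjusted p was 0.122, and with only the 8 arrays of this experiment it was 0.185. In rescue *Tbx1* read 11.83, 11.95, 11.75 and 11.58 in the controls and 11.39, 11.49, 11.51 and 11.49 in the mutants. The groups again did not overlap, but the log2 difference of -0.31 did not pass the adjustment (adjusted p = 1 in limma over all genes, unadjusted p = 0.00344, exact permutation p = 0.0286). In *β-cat LOF* the difference of *Tbx1* was 0.075 (SE 0.0943). *Ctnnb1*, the *β-catenin* gene, differed by -0.035 in *Tbx1 LOF* (SE 0.0585, unadjusted p = 0.556 in limma), by -0.026 in *β-cat LOF*, where its arrays overlapped, and by -0.05 in rescue, where 13.14, 13.12, 13.11 and 13.14 in the mutants lay below 13.19, 13.16, 13.16 and 13.20 in the controls (adjusted p = 1 in limma). The sources used here do not say whether the probe sets of *Tbx1* and *Ctnnb1* lie in the deleted exons, so these values are no full check of the deletions. The paper itself reports lower *Tbx1* in *Tbx1 LOF* by in situ hybridization and qRT-PCR. By qRT-PCR it also reports lower *Tbx1* and *β-catenin* in rescue, and slightly higher *Tbx1* in *β-cat LOF*. Its qRT-PCR took *Tbx1* f/+ as the control, whereas the arrays set rescue and *β-cat LOF* against their own controls. For *β-catenin* in *Tbx1 LOF* its qRT-PCR gave a significant increase, where *Ctnnb1* differed by -0.035 on these arrays.

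None of the 28 neighbours passed an adjusted p under 0.05 in *Tbx1 LOF*, where 6 of all 19938 genes (0.0301%) did, nor in *β-cat LOF* or rescue, where 0 genes did (0% and 0%). At an unadjusted p under 0.05, 1 member of 28 stood out in *Tbx1 LOF* (*Prodh*) against 4.12% of all genes, 1 in *β-cat LOF* (*P2rx6*) against 5.72%, and 0 in rescue against 1.27%. The median log2 difference of the members was -0.018 in *Tbx1 LOF*, 0.018 in *β-cat LOF* and -0.020 in rescue, beside -0.014, 0.015 and -0.015 for all genes. The smallest adjusted p of any member was 0.904, 0.854 and 1 in the 3 comparisons.

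**Figure D1:**
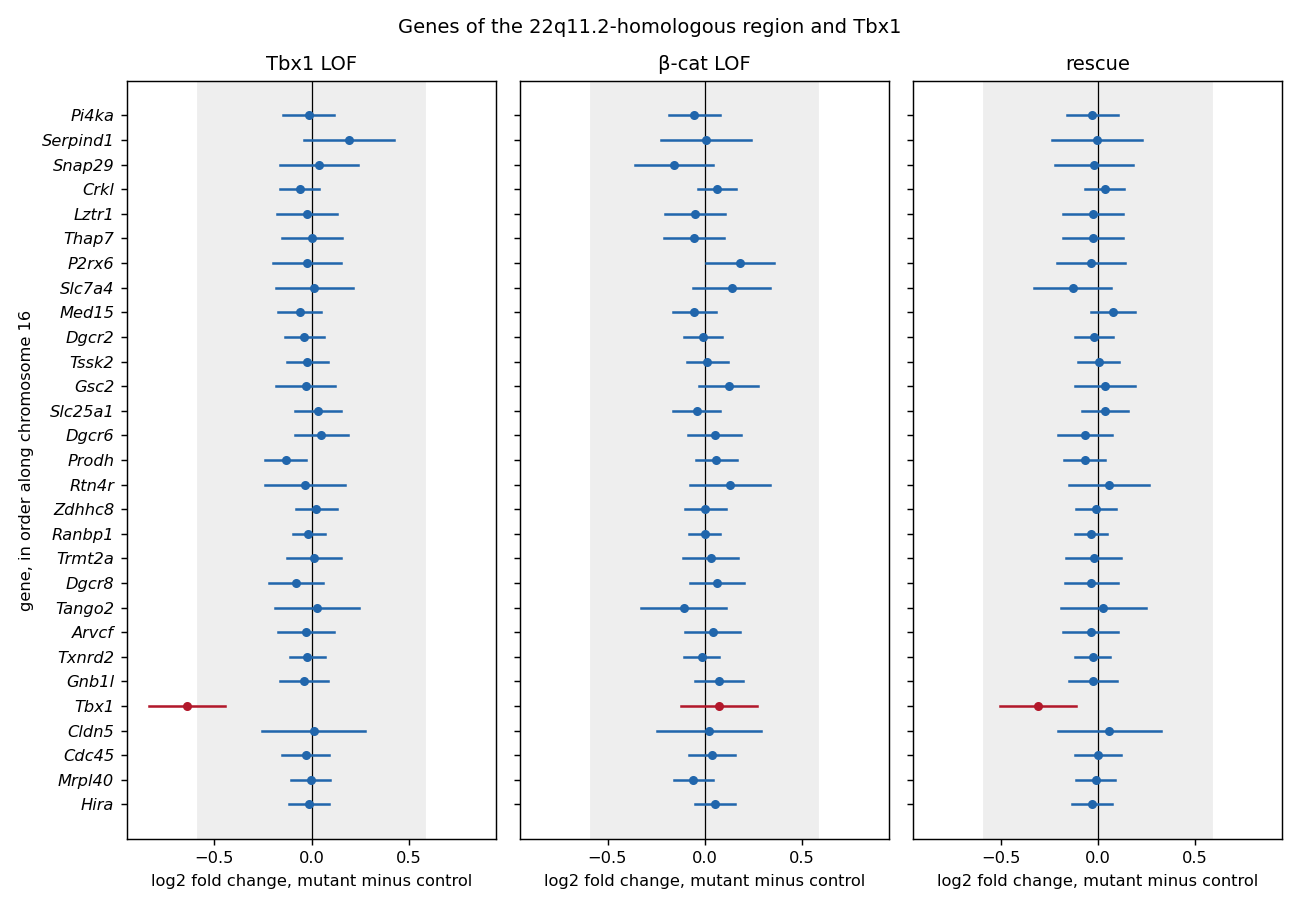
Log2 fold change (x axis, mutant minus control) of the 28 measured region genes (blue) and *Tbx1* (red) in *Tbx1 LOF*, *β-cat LOF* and rescue, with genes in their order along chromosome 16 on the y axis. Points are limma estimates over 4 arrays a group, lines are 95% intervals, and the grey band marks changes of less than 1.5-fold. Every blue line stays inside the band. *Tbx1* lies at -0.64 in *Tbx1 LOF*, where its interval crosses the edge of the band. In rescue *Tbx1* lies at -0.31, and its interval (-0.503 to -0.113) also stays inside the band.

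How large a change the arrays could still hold was read from the 95% intervals. All 28 intervals lay inside a 1.5-fold change either way in each of the 3 comparisons, as did 98% of all genes in *Tbx1 LOF*, 97.8% in *β-cat LOF* and 98.9% in rescue. The interval of *Tbx1* itself in rescue (-0.503 to -0.113) also lay inside 1.5-fold. In rescue this bound therefore does not set the members apart from an inactivated gene. In *Tbx1 LOF* the interval of *Tbx1* (-0.838 to -0.448) crossed the limit. Inside a 1.2-fold change lay 26 members in *Tbx1 LOF* (73.4% of all genes), 21 in *β-cat LOF* (65.5%) and 26 in rescue (76.1%). The interval of *Cldn5*, a claudin of endothelial tight junctions, passed the 1.2-fold limit in every comparison. It was joined by *Serpind1* in *Tbx1 LOF*, by *Slc7a4* in rescue, and by *Gsc2*, *Tango2*, *P2rx6*, *Rtn4r*, *Snap29* and *Slc7a4* in *β-cat LOF*. The members also varied little within groups, the median of their residual SDs being 0.0882 where that of all genes was 0.112, from 0.035 for *Ranbp1* to 0.197 for *Cldn5*. Each SE pools the spread of a gene over all 6 groups. Intervals can therefore be too narrow where 1 experiment varied more, and too wide where it varied less. *Cldn5* had SDs of 0.343 in the *β-cat LOF* controls and 0.23 in *β-cat LOF*, against 0.0404 to 0.173 in the other groups. For *Tango2* they were 0.232 and 0.251, against 0.0477 to 0.114. The other way, *Ctnnb1* had SDs of 0.0142 in rescue and 0.0217 in its controls, beside an SE of 0.0585. In rescue 1.27% of all genes had an unadjusted p under 0.05 in limma, while the arrays of 2.97% did not overlap. A high limma p in rescue is therefore no evidence that a gene was unchanged. These bounds hold for the log2 array scale, on which changes of dim or saturated probe sets are compressed. *P2rx6*, *Serpind1*, *Tssk2* and *Slc7a4* read below the lowest array median on all 24 arrays (6.65 to 7.65), and whether they stood above background was not given with the values.

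Among the genes of chromatin, transcription and RNA, *Hira* differed by -0.01 in *Tbx1 LOF*, 0.05 in *β-cat LOF* and -0.03 in rescue (SE 0.0495 each). The 9 measured genes of the *Hira* histone chaperone pathway gave 0 unadjusted calls in any comparison. *Dgcr8* had one of the largest member differences in *Tbx1 LOF*, reading 10.85, 10.74, 10.65 and 10.63 in controls and 10.65, 10.71, 10.52 and 10.68 in mutants. The groups overlapped, and the log2 difference of -0.08 (SE 0.0669, unadjusted p = 0.247) was smaller than the SD of the controls, 0.102. It was -0.035 without control 1, -0.039 without mutant 3 and -0.008 with array weights. The 10 genes of the microprocessor and microRNA pathway also gave 0 unadjusted calls in all 3 comparisons, with medians of -0.020, 0.028 and -0.012.

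*Med15*, a subunit of the Mediator tail, had the second largest difference in rescue. Its controls read 10.78, 10.74, 10.58 and 10.69, and the rescue arrays read 10.69, 10.82, 10.83 and 10.77. The arrays overlapped, with a log2 difference of 0.08 (SE 0.0539, unadjusted p = 0.157) that became 0.041 without control 3, and its differences were -0.06 (*Tbx1 LOF*) and -0.05 (*β-cat LOF*). None of the 9 Mediator tail and kinase genes listed passed an unadjusted p under 0.05. *Thap7*, a zinc finger repressor, *Gsc2*, a goosecoid-like homeobox protein, and *Trmt2a*, a tRNA methyltransferase, differed by at most 0.12 in size, the 0.12 being *Gsc2* in *β-cat LOF* (unadjusted p = 0.108).

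The members of DNA replication and nuclear transport stayed close to their controls. *Cdc45*, part of the replicative helicase, differed by -0.03, 0.04 and 0.002 in *Tbx1 LOF*, *β-cat LOF* and rescue (SE 0.0576). *Ranbp1*, which assists the GTPase Ran, stayed between 13.03 and 13.22 on all 24 arrays, and its intervals reached no further than -0.117 and 0.081 in any comparison. Neither the 11 genes of the replicative helicase nor the 7 of the Ran cycle held an unadjusted call.

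*Prodh*, the proline dehydrogenase of mitochondria, was the 1 member whose arrays did not overlap between groups, in *Tbx1 LOF*, where 2.3% of all genes did not. No member was free of overlap in *β-cat LOF* (2.84% of all genes) or rescue (2.97%). *Prodh* read 10.05, 10.04, 9.93 and 9.88 in the controls and 9.85, 9.81, 9.88 and 9.84 in *Tbx1 LOF*. The lowest control and the highest mutant were only 0.00849 apart. The log2 difference was -0.13 (SE 0.0511, a fold of 0.911, unadjusted p = 0.0151, adjusted p = 0.904), and an exact two-sided permutation test of the 8 arrays gave p = 0.0286, the smallest it can give. That test takes the arrays as unpaired. The mutant was lower in 4 of 4 same-numbered pairs. An exact test within the pairs, added after seeing the data, gave p = 0.125, the smallest 4 pairs allow. *Tbx1*, the inactivated gene, gave the same 0.0286 and 0.125 in these exact tests, also with 4 of 4 pairs lower. The difference of *Prodh* was -0.22 between arrays numbered 1 and 2 and -0.05 between arrays numbered 3 and 4, and array weights gave -0.09.

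The controls of the other experiments give a scale for this value. *Prodh* read 9.77, 9.69, 9.80 and 9.73 in the *β-cat LOF* controls and 9.80, 9.95, 9.93 and 9.93 in the rescue controls. All 4 *Tbx1 LOF* arrays therefore lay above every *β-cat LOF* control, and the mean of *Tbx1 LOF* (9.84) lay between the means of the *β-cat LOF* controls (9.75) and the rescue controls (9.90). In *β-cat LOF* itself *Prodh* read 9.79, 9.87, 9.84 and 9.74, a difference of 0.06, and in rescue it read 9.88, 9.82, 9.89 and 9.74, a difference of -0.07 (unadjusted p = 0.201) that was -0.10 without control 1 and -0.04 without mutant 4. The change in *Tbx1 LOF* minus that in *β-cat LOF* was -0.19 (SE 0.0723, unadjusted p = 0.0137, adjusted p = 0.493).

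The other mitochondrial and metabolic members showed nothing of this size. *Slc25a1*, the citrate carrier, *Mrpl40*, a mitochondrial ribosomal protein, and *Txnrd2*, the mitochondrial thioredoxin reductase, differed by at most 0.06 in size in any comparison. *Tango2*, a gene of metabolic crises in people, differed by 0.03, -0.11 and 0.03, with an SE of 0.105. Of 11 measured partners of these genes, *Prodh* included, *Prodh* alone had an unadjusted p under 0.05, and in *Tbx1 LOF* only.

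**Figure D2:**
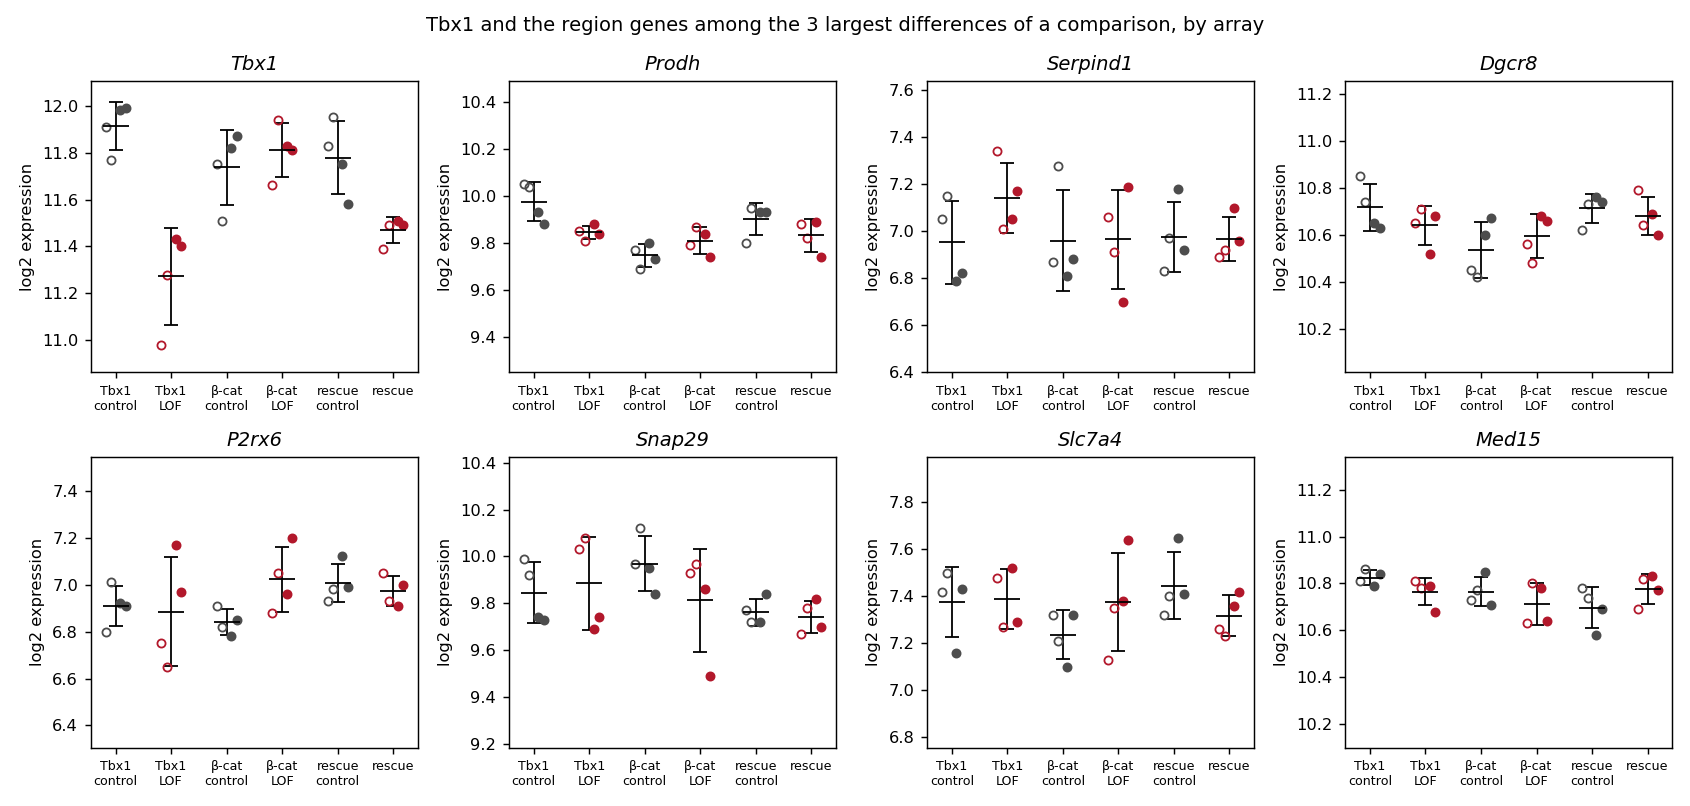
Log2 expression (y axis, the same log2 span in each panel) of *Tbx1* and of the 7 region genes that were among the 3 largest differences of a comparison, in the 6 groups (x axis). Points are single arrays, open for arrays numbered 1 and 2 and filled for 3 and 4, and bars are mean ± SD (n = 4). *Tbx1* is separated from its controls in *Tbx1 LOF* and rescue, while the arrays of the region genes overlap, except *Prodh* in *Tbx1 LOF* by 0.00849.

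Of the signalling members, *Crkl* differed by -0.06 in *Tbx1 LOF*, 0.06 in *β-cat LOF* and 0.03 in rescue (SE 0.0478). Of 12 measured genes of FGF and Crkl signalling, 1 had an unadjusted p under 0.05 in *Tbx1 LOF* and in rescue. It was *Fgf10*, a ligand made by the AHF, at -0.39 (SE 0.106, adjusted p = 0.398) and -0.47 (adjusted p = 1). *Gnb1l*, the WD repeat gene beside *Tbx1* whose window holds the T-box core, differed by -0.04 in *Tbx1 LOF* with an interval from -0.161 to 0.086. *Lztr1*, an adaptor of the Cul3 ubiquitin ligase, *Pi4ka*, a lipid kinase, and *Tssk2*, a testis-specific kinase, differed by at most 0.05 in size.

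*P2rx6*, a subunit of ATP-gated channels, was the member with the largest difference in *β-cat LOF*. Its controls read 6.91, 6.82, 6.78 and 6.85, and *β-cat LOF* read 6.88, 7.05, 6.96 and 7.20. The arrays overlapped at 6.88 and 6.91, with a log2 difference of 0.18 (SE 0.0849, unadjusted p = 0.0432, adjusted p = 0.854). Within arrays 1 and 2 the difference was 0.10 and within arrays 3 and 4 it was 0.27. The channel gene read 6.75 and 6.65 in the *Tbx1 LOF* arrays numbered 1 and 2 and 7.17 and 6.97 in those numbered 3 and 4, so that the spread inside that group exceeded the difference in *β-cat LOF*. *Rtn4r*, the Nogo receptor, differed by -0.03, 0.13 and 0.06 (SE 0.0989).

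*Cldn5* differed from its controls by 0.01, 0.02 and 0.06 in the 3 comparisons (SE 0.129). Its interval in *β-cat LOF*, -0.243 to 0.289, also holds the median of the 11 endothelial markers there, -0.14. Whether *Cldn5* departs from the other markers was not tested. In *β-cat LOF* 5 of the 11 were lower at an unadjusted p under 0.05 in limma. Those were *Pecam1* (-0.24), *Cdh5* (-0.14), *Tie1* (-0.20), *Tek* (-0.37) and *Emcn* (-0.16), none at an adjusted p under 0.05. The mean level of the endothelial list, *Cldn5* included, ranged from 10.33 to 10.42 in *β-cat LOF* and from 10.43 to 10.59 in its controls. *Arvcf*, a cadherin-binding catenin of the p120 family, differed by -0.03, 0.04 and -0.04, and *Cdh5* in *β-cat LOF* was the single unadjusted call among 9 junction partners. *Dgcr2*, a membrane protein with a lectin domain, and *Dgcr6* stayed within 0.07 in size in every comparison. The probe set that *Gp1bb* shares with *Septin5* differed by 0.11, -0.05 and 0.06 (SE 0.0671), and the part of either gene in it cannot be told.

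Among the trafficking and transport members, *Snap29*, a SNARE protein of membrane fusion, had the lowest difference in *β-cat LOF*. Its controls read 9.97, 10.12, 9.95 and 9.84 and *β-cat LOF* read 9.93, 9.97, 9.86 and 9.49. The last array alone lay below the controls, and the log2 difference of -0.16 (SE 0.0963, unadjusted p = 0.115) became -0.05 without it and -0.04 with array weights. *Zdhhc8*, a palmitoyltransferase, differed by at most 0.03 in size.

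*Slc7a4*, of the cationic amino acid transporter family, had a positive difference in *β-cat LOF* and a negative one in rescue. It read 7.32, 7.21, 7.10 and 7.32 in the *β-cat LOF* controls and 7.13, 7.35, 7.38 and 7.64 in *β-cat LOF*, a log2 difference of 0.14 (SE 0.0957, unadjusted p = 0.157). In rescue the controls read 7.32, 7.40, 7.65 and 7.41 and the mutants 7.26, 7.23, 7.36 and 7.42, a difference of -0.13 (unadjusted p = 0.192). Single arrays carried much of both values, which were 0.05 without *β-cat LOF* array 4, 0.22 without *β-cat LOF* array 1, 0.09 without its control 3, and -0.06 without rescue control 3. Both sets overlapped, and the change in rescue minus that in *β-cat LOF* was -0.27 (SE 0.135, adjusted p = 0.938).

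*Serpind1* encodes heparin cofactor II, a thrombin inhibitor that the liver secretes, and its window holds the TCF/LEF core. It read 7.05, 7.15, 6.79 and 6.82 in the controls and 7.34, 7.01, 7.05 and 7.17 in *Tbx1 LOF*, the largest member difference of that comparison at 0.19 (SE 0.112, unadjusted p = 0.0981). The arrays overlapped. The difference was 0.08 within arrays 1 and 2, 0.30 within arrays 3 and 4, and 0.13 without mutant 1, and array weights gave 0.33. In *β-cat LOF* it was 0.006 and in rescue -0.003. Of the liver and gut markers in *Tbx1 LOF*, 4 of 9 were higher at an unadjusted p under 0.05 (median 0.38), among them *Afp* at 1.39 and *Ttr* at 1.34, with a mean level of 8.02 to 8.87 in mutants and 7.70 to 8.33 in controls, and none passed the adjustment (smallest adjusted p 0.31). In *β-cat LOF*, where *Serpind1* differed by 0.006, their median was -0.32, with *Trf* lower at an unadjusted p under 0.05. Their part in the value of *Serpind1* was not tested.

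Other genes of the region that were not among the members were also near their controls. Of 12 such genes 9 were measured, *Tbx1* included. Apart from *Tbx1*, only *Rimbp3* had an unadjusted p under 0.05, at 0.21 in *β-cat LOF* (SE 0.0765, adjusted p = 0.783). *Ufd1*, *Ess2*, *Klhl22*, *Scarf2*, *Aifm3*, *Car15* and *Lrrc74b* lay between -0.13 and 0.16 in the 3 comparisons.

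The 3 experiments were next compared with each other. For the change in *Tbx1 LOF* minus that in *β-cat LOF*, 0 members passed an adjusted p under 0.05, against 0.0502% of all genes, *Tbx1* itself among them (-0.72, adjusted p = 0.0439). No gene passed for *Tbx1 LOF* minus rescue (0%) or rescue minus *β-cat LOF* (0%), and 0 members did.

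The 3 control groups were also compared with each other. By a moderated F test 0 members passed an adjusted p under 0.05 (0.341% of all genes), but 7 of 28 had an unadjusted p under 0.05, beside 13.6% of all genes. They were *Prodh*, with the smallest adjusted p of 0.086, and *Gnb1l*, *Dgcr8*, *Dgcr6*, *Crkl*, *Cldn5* and *Trmt2a*, with adjusted p of 0.232 to 0.352. *Cldn5* stood 0.29 higher in the *Tbx1 LOF* controls than in the *β-cat LOF* controls, more than the difference of any member from its own controls, and *Prodh* stood 0.23 higher. Each control group belongs to its own experiment, so that genotype and experiment cannot be told apart.

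**Figure D3:**
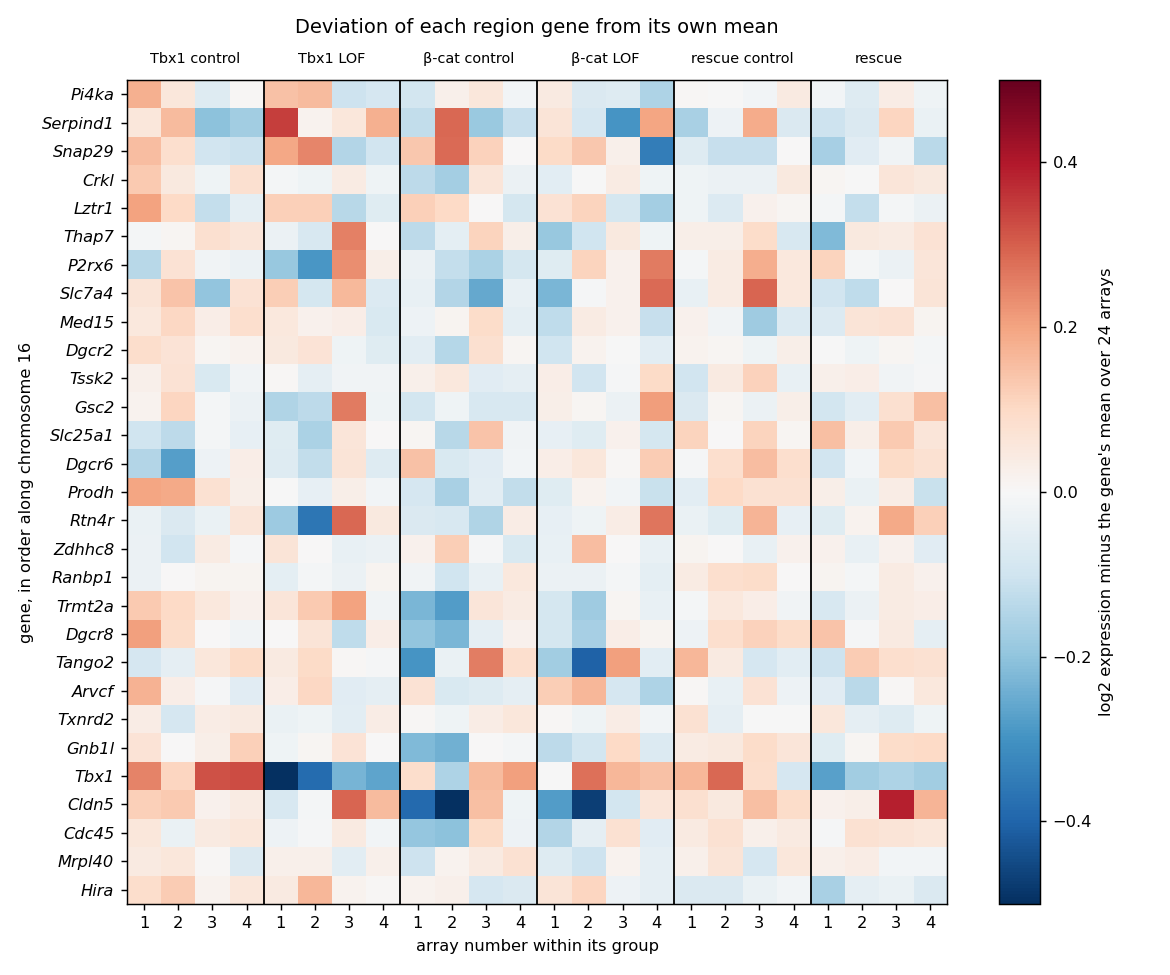
Log2 expression of each measured region gene and *Tbx1* on the 24 arrays (x axis, by group and array number) minus the mean of that gene over all arrays, with colours ending at 0.5 log2 units either way and genes in chromosomal order (y axis). The *Tbx1* row is blue in *Tbx1 LOF* and rescue, and *Cldn5*, *Tango2* and *Trmt2a* are blue in arrays numbered 1 and 2 of the *β-cat LOF* experiment in both genotypes, *Tango2* in its second control least.

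The array numbers split some members more than the genotype did. The methods describe batch effects as clear, above all in the *β-cat LOF* and *Tbx1 LOF* data. The authors left out poor arrays, applied ComBat and blocked for batch in limma. The reported fit here has no such block, since the methods do not say which array was in which batch. Arrays numbered 3 and 4 were therefore compared with those numbered 1 and 2 as a description of the numbers. Whether the numbers follow the batches is not given. In the *β-cat LOF* experiment 9 of 28 members differed at an adjusted p under 0.05, against 11.7% of all genes. In the *Tbx1 LOF* experiment 5 of 28 did, against 25.1% of all genes, and in the rescue experiment 0 did, against 0%.

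*Cldn5* had the largest such difference, 0.46 (adjusted p = 0.00124). In the *β-cat LOF* experiment it read 10.24, 10.02, 10.78 and 10.61 in controls and 10.35, 10.16, 10.54 and 10.69 in mutants, so that the first pair of arrays was below the second in both genotypes. Of the 11 endothelial markers, *Cldn5* included, 4 were higher in arrays 3 and 4, with a median of -0.07. *Tango2* was 0.35 higher (adjusted p = 0.00721), reading 9.65, 9.91, 10.20 and 10.03 in controls and 9.77, 9.54, 10.15 and 9.89 in mutants. *Trmt2a* (0.21), *Dgcr8* (0.17), *Gnb1l* (0.17) and *Cdc45* (0.17) were also higher, and *Snap29* (-0.21), *Lztr1* (-0.18) and *Arvcf* (-0.16) lower.

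Genes that share a promoter window did not always share these differences. *Arvcf* was lower by 0.16 in arrays 3 and 4 of the *β-cat LOF* experiment where *Tango2*, on the other side of the window printed above, was higher by 0.35. *Ranbp1* differed by 0.03 (adjusted p = 0.616) where *Trmt2a*, which shares 288 of its 300 bases, differed by 0.21 (adjusted p = 0.00972). *Pi4ka* and *Snap29* were both lower in arrays 3 and 4 of the *Tbx1 LOF* experiment (-0.20 and -0.28), whereas in the *β-cat LOF* experiment *Pi4ka* differed by -0.02 and *Snap29* by -0.21. *Mrpl40* and *Hira* differed by -0.06 and -0.08 in the *Tbx1 LOF* experiment. In the *β-cat LOF* experiment *Mrpl40* differed by 0.08 and *Hira* by -0.11, with no adjusted p under 0.05 in either experiment. Outside these pairs, *Lztr1* was lower in both experiments (-0.23 and -0.18), and *Rtn4r* (0.25) and *Dgcr6* (0.15) were higher in the *Tbx1 LOF* experiment. *Tango2*, *Arvcf* and *Pi4ka* also have windows outside the shared one, and their values are not specific to the shared start. Whether the members of a pair differ from each other was not tested.

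**Figure D4:**
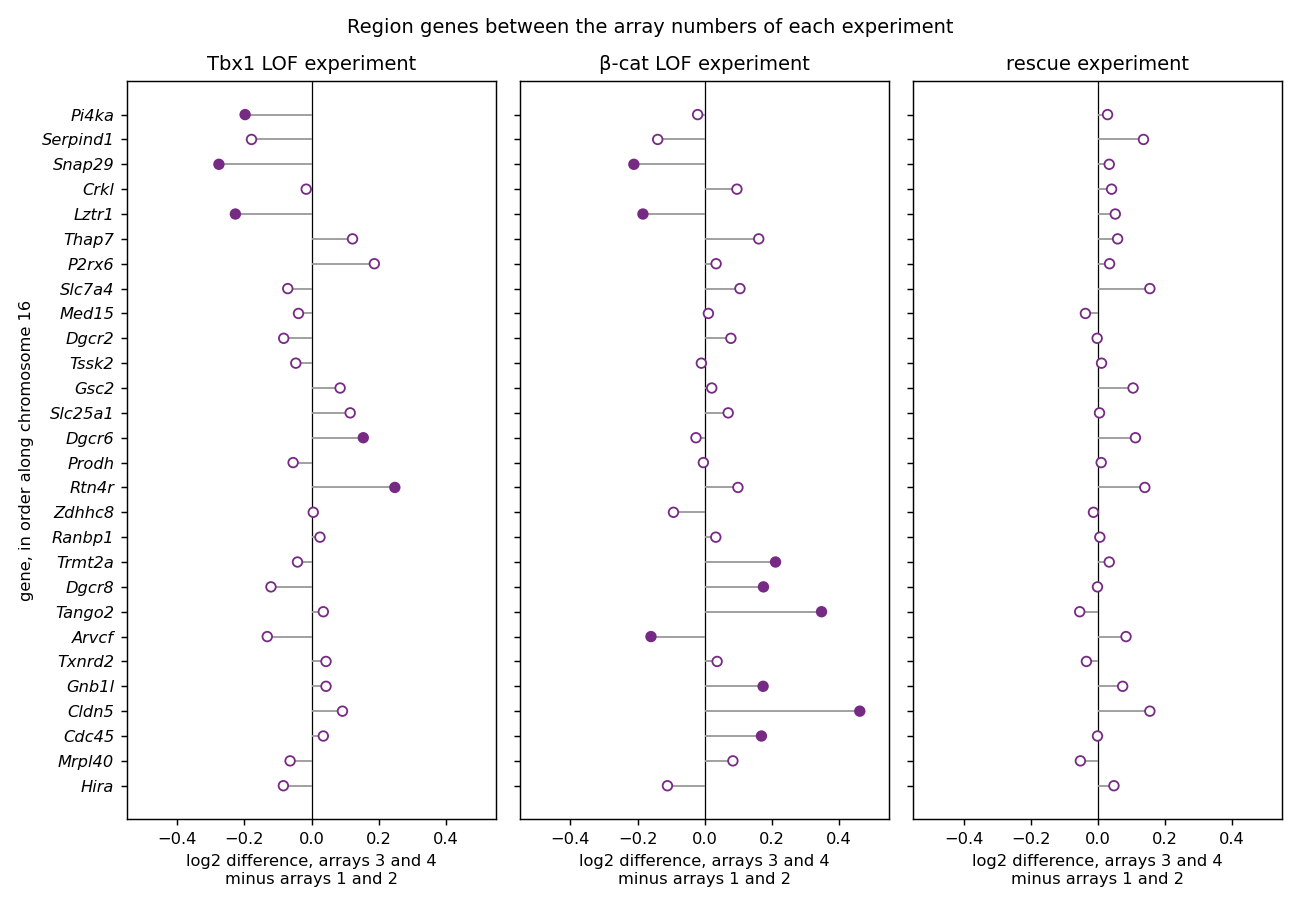
Log2 difference (x axis) of arrays numbered 3 and 4 minus arrays numbered 1 and 2, averaged over mutants and controls, for the 28 region genes in chromosomal order (y axis) in each experiment, from 8 arrays. Filled points had an adjusted p under 0.05 in limma. *Cldn5* at 0.46 and *Tango2* at 0.35 lead in the *β-cat LOF* experiment, and no point is filled in the rescue experiment.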

How the data were processed

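Each of the 24 arrays (Affymetrix Mouse Gene ST) received cDNA amplified from 100 ng of total RNA. The authors made the deposited log2 values with RMA in the oligo package (background correction, quantile normalization and a summary per gene). The oligo version, the genome build, the batch of each array and the use of ComBat on these values were not given in the sources used here. Of 35556 probe sets, 21789 with 1 gene symbol were averaged into 19938 genes, leaving out 1621 with several symbols and 12146 without one. No filter on low values was applied. The members, gene lists and tests were chosen with earlier results of these data known.

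A single limma fit (version 3.58.1, R 4.3.3) of 6 group means (18 residual degrees of freedom) gave the reported limma tests between groups. Differences between array numbers came from a separate limma fit with added terms for those numbers. The alternative runs were also fitted separately. Limma p-values were adjusted by the Benjamini-Hochberg method over all genes. The exact tests were run on the array values, outside limma. The scripts were tested on simulated data. Members were given by array where their adjusted p was under 0.05, their unadjusted p under 0.01, their arrays did not overlap, or they had the 3 largest differences of a comparison. *Ctnnb1*, *Tbx1* and the genes of the lists named were added by the same rule, and others were chosen after their values were seen. Replicates are pools of several embryos. Whether array numbers pair mutants with controls was checked by correlating deviations from the group means: same-numbered arrays gave r of 0.157 to 0.494 in the *Tbx1 LOF* experiment, from the data and not the labels, 0.0889 to 0.479 in *β-cat LOF* and -0.0638 to 0.256 in rescue. The same-numbered control was the best match only for mutant 4 in *Tbx1 LOF*, mutants 3 and 4 in *β-cat LOF* and mutant 3 in rescue. The array numbers are therefore not established as pairs. The precision is limited by 4 arrays a group. Gene order and promoter windows came from RefSeq (GRCm38.p6).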

Additional observations from a re-analysis of the deposited data

Results flagged for a closer look

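Of 174 sets of 4 arrays (28 members and *Tbx1* in 6 groups), 10 held an array far from the other 3 relative to the spread of the group, where chance alone gives about 1 in 20. In the *Tbx1 LOF* experiment, control 2 read 10.34 for *Cdc45* (others 10.42 to 10.43) and 9.09 for *Txnrd2* (others 9.21 to 9.22), and mutant 3 read 12.12 for *Mrpl40* (others 12.20) and 11.62 for *Crkl* (others 11.56 to 11.57). In the *β-cat LOF* experiment, control 2 read 7.28 for *Serpind1* (others 6.81 to 6.88). In the rescue experiment, mutant 1 read 9.47 for *Thap7* (others 9.73 to 9.76), mutant 2 read 10.48 for *Lztr1* (others 10.57 to 10.59), control 1 read 9.80 for *Prodh* (others 9.93 to 9.95), control 3 read 8.51 for *Rtn4r* (others 8.28 to 8.31) and control 4 read 11.63 for *Crkl* (others 11.55 to 11.56). The change of *Tbx1* differed between *Tbx1 LOF* and *β-cat LOF* by -0.72 in the direct test (limma, adjusted p = 0.0439).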

How the results depend on the processing

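No member passed an adjusted p under 0.05 in *Tbx1 LOF*, *β-cat LOF* or rescue under any alternative run for them, nor between comparisons under 4 alternatives (replicate block, array numbers, trend and robust prior, array weights) or among control groups under 3 (trend and robust prior, array weights, median centring). By the reported fit 0 of all genes passed in *β-cat LOF* or rescue. In *Tbx1 LOF* 0 of all genes passed with the replicate block or with the 8 arrays alone. Where no gene passes the members cannot, so such runs do not set them apart from other genes. Members with intervals inside 1.5-fold numbered 27 to 29 in *Tbx1 LOF* and *β-cat LOF* and 28 to 29 in rescue. The 29 came with *Gp1bb* kept, and the 27 in arrays numbered 3 and 4 alone. Members at an unadjusted p under 0.05 moved as follows, the cause not being tested. In *Tbx1 LOF* there were 1 by the reported fit, 4 in arrays numbered 1 and 2 alone, 0 in arrays numbered 3 and 4 alone, 0 in the 8 arrays alone and 2 after quantile normalization again. In *β-cat LOF* there were 1 by the reported fit, 2 with a term for array numbers, 0 in arrays numbered 1 and 2 alone, 3 with array weights, and 0 after median centring or quantile normalization again. In rescue array weights gave 1 against 0. Leaving out 1 array gave 0 to 1 members in *Tbx1 LOF* (0 without control 1), 0 to 2 in *β-cat LOF* (0 without mutant 2 or 4 or control 2 or 4, 2 without mutant 1 or 3) and 0 in rescue. Among control groups array weights gave 4 members against 7.

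With the replicate block 0 members passed in any comparison and the adjusted p of *Tbx1* in *Tbx1 LOF* rose to 0.122 (6 called genes became 0). That p ranged from 0.00519 to 0.0534 when 1 array was left out, being 0.0504 without mutant 1 and 0.0512 and 0.0534 without controls 3 and 4. It was 0.236 and 0.0603 within arrays 1 and 2 and arrays 3 and 4. Signs turned for *Slc7a4* in *β-cat LOF* (-0.021) and *Med15* in rescue (-0.004) within arrays 1 and 2, and for *Tbx1* in *β-cat LOF* (-0.021) within arrays 3 and 4. The 4 pools per group and the compressed folds of arrays limit what smaller changes could be seen.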
